A study of Mus musculus with 16 samples.

Results

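The oxidative phosphorylation genes of the nuclear genome were followed in the livers of male C57BL/6J wild-type mice fed a high-fat diet (HFD) with or without fenretinide, a synthetic retinoid. Genes were taken from the count table by symbol: all rows named Nduf with a, b, c, s or v and a digit, Sdha to Sdhd, and all rows whose names start with Uqcr, with Cox and a digit from 4 to 8, or with Atp5. This gave 84 genes of 23420 rows, of which 35 belong to complex I, 4 to complex II, 8 to complex III, 20 to complex IV and 15 to complex V. The remaining 2, Atp5s and Atp5sl, carry an Atp5 symbol but encode no subunit of the ATP synthase. Ndufa4 and Ndufa4l2 are counted with complex IV, where the Ndufa4 protein resides.

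All mice received a diet with 45% fat (HFD), and the FEN-HFD mice received 0.04% fenretinide in it. There were 4 mice per diet after 20 weeks and 4 other mice per diet after 7 days, so that 16 livers were sequenced and no animal was shared between groups. The age at the start of the diets is not given in the sources used here, and duration, age and cohort cannot be told apart. All 4 groups ate the HFD, and lean livers were not analysed here. Values are read counts per gene, and levels are given as CPM, each count relative to its library's total, scaled with TMM factors over the 16 libraries.

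The respiratory chain sits in the inner mitochondrial membrane. Complex I takes electrons from NADH and complex II takes them from succinate, and both pass them through ubiquinone to complex III, then through cytochrome c to complex IV, which reduces oxygen. Complexes I, III and IV pump protons, and complex V, the ATP synthase, uses the resulting gradient to make ATP. Most subunits are encoded in the nucleus and a minority in mitochondrial DNA, and the liver relies on this chain to burn fatty acids and to fuel gluconeogenesis.

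Total counts ran from 19218230 to 32546829 per library. The table holds 0 rows for mitochondrially encoded genes, so only the nuclear share of each complex was measured. Hepatocyte markers were abundant in every library, with a summed level of 52014 to 81794 CPM over 7 genes, of which Ass1 alone was near 0. Certain libraries bear on the values below. In FEN-HFD mouse 29 (20 weeks) Rn45s, the ribosomal RNA precursor, held 53.1% of the counts and Lars2 4.36%, against at most 1.46% and 0.0499% in the other 15. HFD mouse 45 (20 weeks) carried striated muscle transcripts, and FEN-HFD mouse 61 (7 days) showed a dependence on base composition, both described with the members they touch. In whole liver RNA, fewer cells of a type and less RNA per cell cannot be told apart, and p-values measure the spread between 4 mice per group.

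Of the 84 genes, 81 had at least 1 count, and 77 passed the filter on low counts and were tested in each comparison. Ndufs5, Cox7b2 and Cox8c had 0 counts in all 16 libraries, and Cox4i2, Cox6a2, Cox6b2 and Cox8b were too low to be tested. Cox7b2 and Cox8c are isoforms known from the testis. Ndufs5 is different, since it encodes an accessory subunit of complex I that is present wherever the complex is built. Its gene (chr4:123712710-123718202, minus strand, GRCm38) has a processed pseudogene, BC002163 (chr16:42955631-42955949), which had 7 to 44 counts per library. The copy matches the Ndufs5 transcript at 99.4% of 319 bases and differs from it at 2 positions of the coding sequence, T81C and A105G, counted from 1 at the first base of the start codon with the Ndufs5 base written before the position. Bases 51 to 110 of the coding sequence are printed from the GENCODE transcripts because they hold both differences, which are in capitals.
Ndufs5: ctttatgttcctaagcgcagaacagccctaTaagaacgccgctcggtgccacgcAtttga
BC002163: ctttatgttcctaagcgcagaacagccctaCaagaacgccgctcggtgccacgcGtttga
Of the 451 stretches of 75 bases in the 525-base Ndufs5 transcript, 146 (32.4%) are identical to the copy, and the other stretches are not. The cause of the 0 was not tested. A near copy elsewhere, at 95% identity or more over at least 75 bases, was found for 26 of the 84 genes, and exons of 23 overlap those of another gene, 4 of them on the same strand. Counts of these genes are therefore uncertain where reads could be shared. Members with a near copy and a mean of at least 10 CPM had a median of 175 CPM per kb of transcript (25 genes), against 140 CPM per kb in those without (49 genes).

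Levels were compared between genes per kb of transcript, as the mean over all 16 livers. The length used was the median over a gene's protein-coding GENCODE transcripts. An order between genes depends on that choice, which the SD between livers does not measure. Complex V held the highest member, Atp5b, the catalytic beta subunit, with 759 ± 79.4 CPM per kb (SD, n = 16). The alpha subunit gene Atp5a1 followed among the ATP synthase genes with 525 ± 48.3 CPM per kb (SD, n = 16), a gap wider than either spread. In complex IV the order began with Ndufa4 at 549 ± 57.4 CPM per kb and Cox4i1 at 471 ± 31.1 CPM per kb (SD, n = 16 each). The leading complex III gene was Uqcr11, a small subunit, with 371 ± 46.2 CPM per kb, and the leading complex I gene was Ndufa6, an accessory subunit, with 360 ± 27.4 CPM per kb (SD, n = 16 each). These levels of Uqcr11 and Ndufa6, and those of Uqcrh (356 ± 36.4 CPM per kb), Cox8a (358 ± 41.8 CPM per kb) and Cox6b1 (356 ± 32.3 CPM per kb), lay within each other's spread. Sdha, the flavoprotein subunit of complex II, and Sdhb, its iron-sulphur subunit, had 209 ± 21.3 and 206 ± 22.4 CPM per kb (SD, n = 16) and did not differ beyond their spread, while Sdhc, a membrane anchor, had 78.2 CPM per kb.

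Members of a complex differed widely in RNA level although each contributes to the same assembly. The median level was 95.1 CPM per kb over 34 genes in complex I, 182 CPM per kb over 4 genes in complex II, 241 CPM per kb over 8 genes in complex III, 252 CPM per kb over 12 genes in complex IV and 230 CPM per kb over 15 genes in complex V, in each case for members with a mean of at least 10 CPM. Complex I spanned 20.7 CPM per kb for Ndufb4 to 360 CPM per kb for Ndufa6. The level of Ndufb4 is uncertain, since it has 2 near copies, of which Ndufb4c is 100% identical over 390 bases. The 7 catalytic core subunits of complex I, which carry the flavin and iron-sulphur clusters, had a median of 72.7 CPM per kb, and its 27 measured accessory subunits had 101 CPM per kb. In complex III the 5 small subunits had a median of 333 CPM per kb, above the highest of the 3 core and Rieske subunits, at 180 CPM per kb. The 3 genes for the c ring of complex V encode the same mature peptide, and their levels were 366 CPM per kb for Atp5g3, 54.2 CPM per kb for Atp5g2 and 46.3 CPM per kb for Atp5g1. Atp5g1 has 6 near copies elsewhere in the genome and Atp5g2 has 2, of which Gm10175 is 100% identical over 645 bases, and Atp5g3 has 0. The levels of Atp5g1 and Atp5g2 are therefore uncertain. Their order also rests on the lengths used, 2675.5 bases for Atp5g1 and 586 bases for Atp5g2. Before division by length the means were 263 CPM for Atp5g3, 124 CPM for Atp5g1 and 31.8 CPM for Atp5g2.

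**Figure D1:**
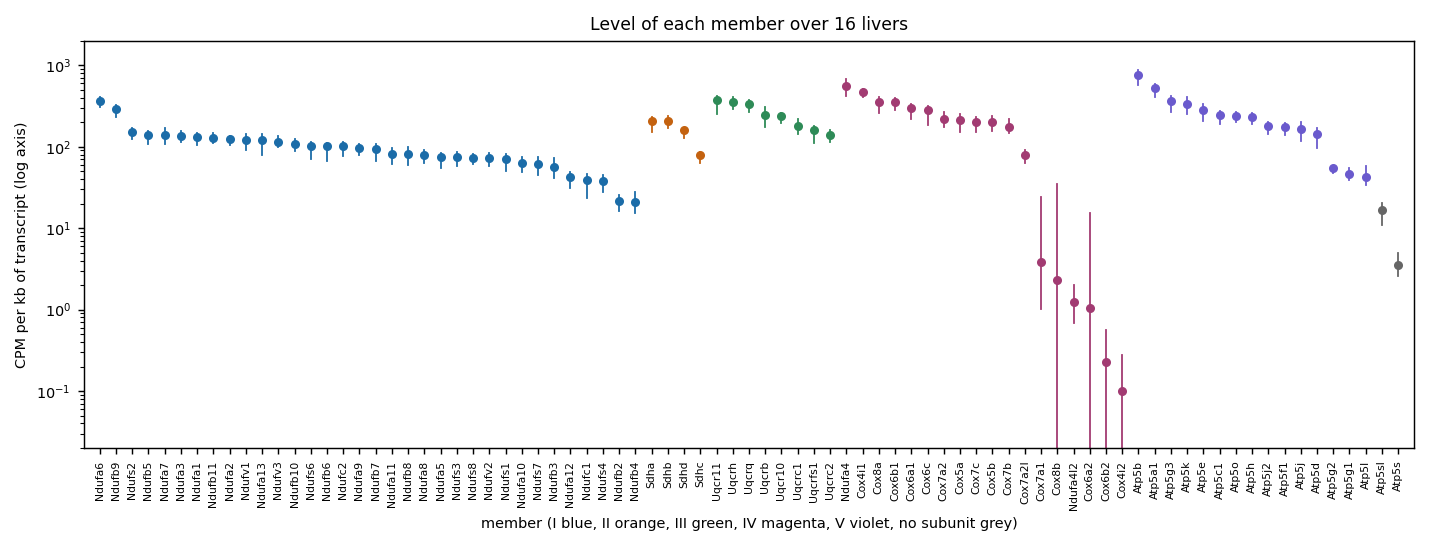
Mean level of each member over 16 livers in CPM per kb of transcript on a log axis, with a line from the lowest to the highest liver, ordered by complex and level; lines that reach the lower edge include livers at 0. Most subunits lie between 20.7 (Ndufb4) and 759 CPM per kb (Atp5b), and the tissue-restricted isoforms of complex IV lie below 4 CPM per kb.

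The complexes kept nearly fixed proportions across the livers. Complex I supplied 23.5% to 24.7% of the summed CPM of the 74 members with a mean of at least 10 CPM. Complex II supplied 9.05% to 9.86%, complex III 11.8% to 12.3%, complex IV 16.2% to 17.4% and complex V 36.7% to 38.3%, the range covering all 16 livers. The sum itself varied more, from 10103 CPM in FEN-HFD mouse 29 to 13892 CPM in HFD mouse 146 at 7 days. It was 12670 ± 731 CPM (SD, n = 4) on the HFD and 12124 ± 1434 CPM (SD, n = 4) on FEN-HFD at 20 weeks. After 7 days it was 12769 ± 1323 CPM (SD, n = 4) and 12963 ± 785 CPM (SD, n = 4). The sums of the 4 groups overlapped.

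FEN-HFD mouse 29 had the lowest sum and HFD mouse 143 (7 days) the next lowest in each of the 5 complexes. For complex I the sums were 2481 CPM in mouse 29 and 2620 CPM in mouse 143, against 2826 CPM in the next library. For complex V they were 3715 and 4148 CPM, against 4414 CPM. Of the 74 members, 69 were below their 16-mouse mean in mouse 29 and 73 in mouse 143. The mean deviation over all 74 was -0.29 in mouse 29 and -0.19 in mouse 143 on the log2 scale. By contrast all 74 were above their mean in HFD mouse 146 at 7 days. Other genes of the same length and GC content as the members were on average 0.12 above their mean in mouse 29 (log2 scale) and 0.011 above it in mouse 143. The members thus shared the direction of their deviation in these libraries. The members' mean in mouse 29 went from -0.29 to -0.41 when the length and GC trend of other genes was taken off. The same mice had the highest summed level of 6 macrophage markers, 578 CPM in mouse 29 and 487 CPM in mouse 143, against 196 to 352 CPM in the other libraries. Mouse 29 also had the highest sums of the blood and adipocyte lists, at 432 and 145 CPM. Its adipocyte sum was nearly all Cfd, at 144 CPM, with 3 of the 5 markers at 0. The same sum was 55.0 CPM or more in every FEN-HFD liver at 20 weeks. The part of these markers, and of the ribosomal RNA in mouse 29, in the low values was not tested.

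**Figure D2:**
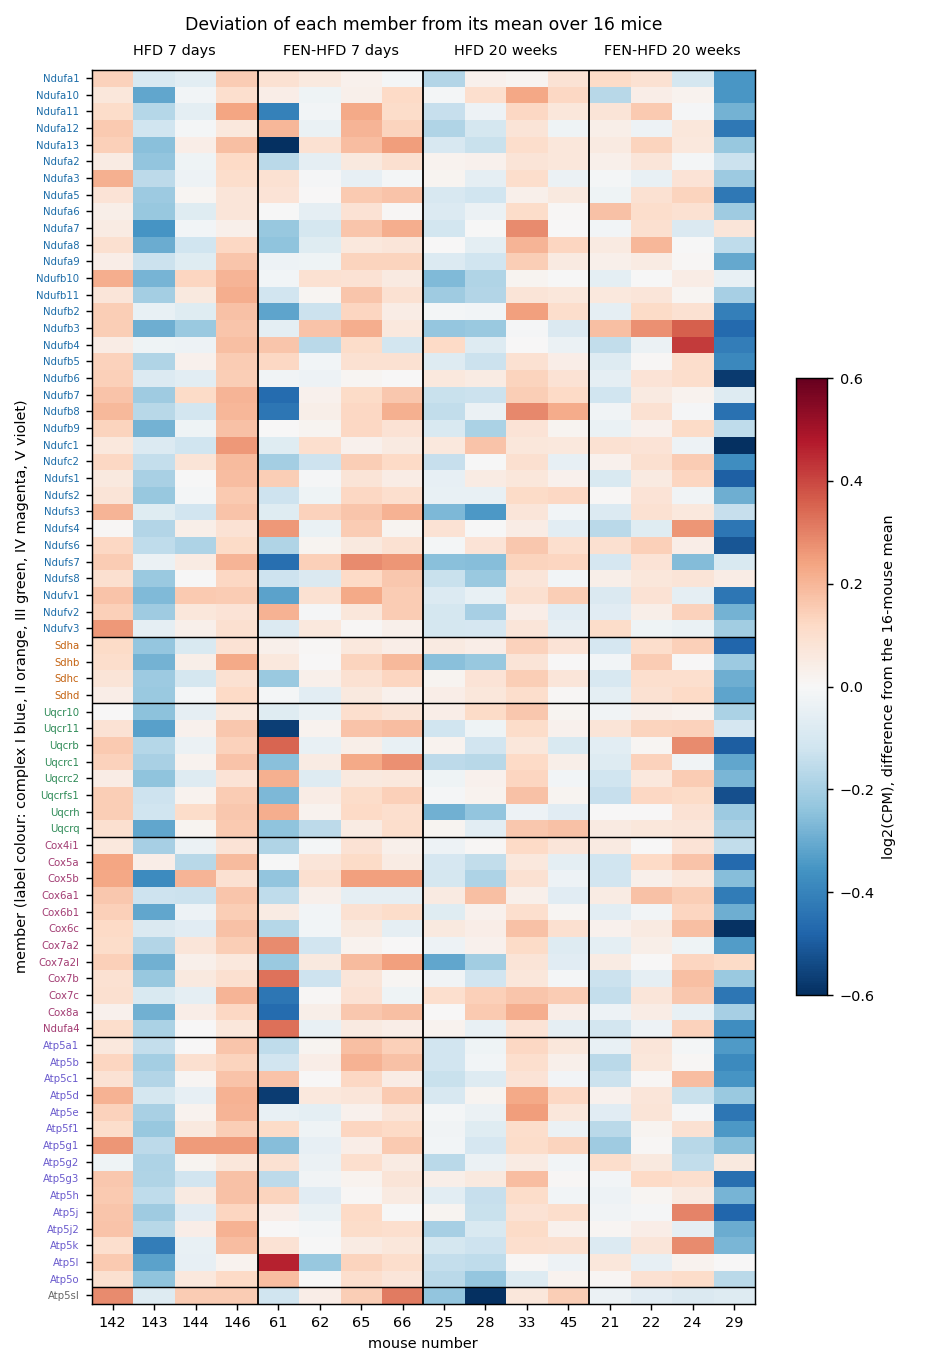
Log2 difference of each of 74 members from its own mean over the 16 mice, with members in rows by complex, mice in columns by group, and colours saturated at 0.6 in either direction. The columns of FEN-HFD mouse 29 and HFD mouse 143 are mostly blue, with 69 and 73 of 74 members below their mean, and mouse 61 mixes strong reds and blues.

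Mouse 61 (FEN-HFD, 7 days) differed in another way. Its members spread with an SD of 0.23 around their 16-mouse means on the log2 scale, against 0.053 to 0.17 in the other 15 libraries. The members' deviations in mouse 61 followed the GC content of their transcripts, with Pearson's r = -0.62 over 74 genes, which share 1 library and are not independent replicates. The 25 members with the lowest GC content were 0.05 above their mean and the 25 with the highest were 0.21 below it (log2 scale). Atp5l and Uqcrb, with 47.8% and 42.2% GC, were 0.46 and 0.35 above their means, whereas Ndufa13 and Atp5d, with 60.4% and 61.1% GC, were 0.61 and 0.57 below theirs. After a trend fitted on the other genes was removed, r in mouse 61 was 0.027 and the SD 0.18. Mice 24 and 29 showed a weaker correlation with GC content, with r = -0.50 in mouse 24 and r = 0.46 in mouse 29, both FEN-HFD at 20 weeks. In the other libraries r with GC content ran from -0.26 (HFD mouse 25, 20 weeks) to 0.41 (FEN-HFD mouse 66, 7 days). With the log2 of transcript length r was -0.45 in FEN-HFD mouse 21 (20 weeks) and from -0.14 to 0.29 in the other libraries. All 84 genes together ranged from 36.7% to 61.1% GC, with a median of 52.0%, and from 322 to 2900 bases of transcript, with a median of 731 bases. The lowest GC content was that of Cox7b2, which had 0 counts, and among the 74 members it was 42.0% (Cox7b).

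**Figure D3:**
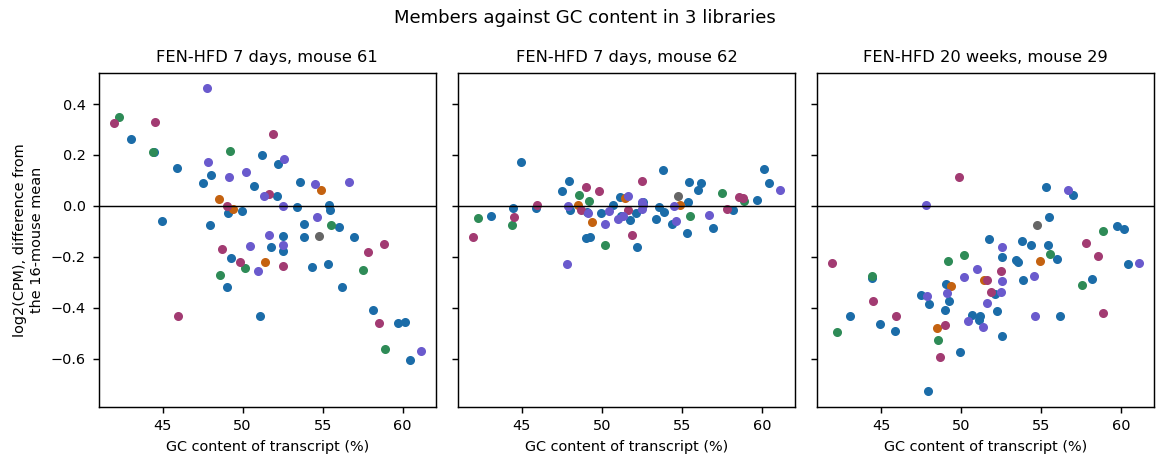
Log2 difference of each of 74 members from its 16-mouse mean against the GC content of its transcript in mouse 61, mouse 62 and mouse 29, with points coloured by complex (I blue, II orange, III green, IV magenta, V violet). The points fall with GC content in mouse 61 (r = -0.62), show little slope in mouse 62 (r = 0.27) and lie mostly below 0 in mouse 29, rising with GC content (r = 0.46).

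FEN-HFD was compared with HFD at 20 weeks to ask whether the RNA of the chain changed with the retinoid in long-term feeding. Of the 77 members tested, 0 were higher and 0 lower by edgeR's quasi-likelihood test at an adjusted p under 0.05, where 0.769% of all 13010 genes tested were higher and 1.09% lower. At an unadjusted p under 0.05 there were 2 members, against 18.5% of all genes, and 2 members had groups that did not overlap, against 12.8% of all genes. DESeq2 called 1 member lower (Cox7a1) and limma-voom called 0. The 95% interval of the fold change lay within 1.5-fold in either direction for 73 of 77 members, against 57.4% of all genes, so that for these members a larger change was outside the interval. Shares over all genes, here and in the comparisons below, are not matched to the members for level. A mean of at least 10 CPM was reached by 74 members and by 7734 of the 13387 genes kept over all 16 libraries. Among genes outside the set, Lrat, a retinoid-responsive gene of stellate cells, was called in these livers, at 83.0 ± 5.63 CPM on FEN-HFD and 49.3 ± 10.6 CPM on HFD (SD, n = 4 each). Its edgeR adjusted p was 0.0357. Lrat was 1 of 6 stellate markers tested, of which 1 was called higher and 0 lower, with a median log2 fold change of -0.25. At an unadjusted p under 0.05 by edgeR, 1 was higher and 2 lower. Reln and Col1a1 had lower means on FEN-HFD (184 and 6.89 CPM) than on HFD (227 and 16.4 CPM). At 7 days Lrat had 79.2 ± 9.01 CPM on FEN-HFD and 42.1 ± 2.10 CPM on HFD (SD, n = 4 each). The summed hepatocyte markers were 67178 to 78892 CPM on HFD and 52014 to 64735 CPM on FEN-HFD at 20 weeks, with no overlap, and 0 of the 6 tested were called. Most of that sum was Alb, at 51060 ± 3546 CPM on HFD and 34665 ± 6660 CPM on FEN-HFD (SD, n = 4 each), while Apoa1, Cps1 and Serpina1c had higher means on FEN-HFD and the median log2 fold change of the list was 0.12. Of 6 macrophage markers 1 was higher and 0 lower, with sums of 196 to 246 CPM on HFD and 271 to 578 CPM on FEN-HFD. The part of these differences in the members' values was not tested.

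The members' median log2 fold change at 20 weeks was -0.041, with 23 above 0 and 54 below, beside 0.0093 over all genes. Medians were -0.037 in complex I, -0.10 in complex II, -0.044 in complex III, -0.058 in complex IV and -0.045 in complex V. The sign rested on 1 library, since the median over members was 0.027 without FEN-HFD mouse 29, and limma-voom, which weights libraries by quality, gave 0.0013. In complex I the fold changes ran from -0.22 for Ndufa10 to 0.26 for Ndufb3 on the log2 scale, and in complex V from -0.19 for Atp5g1 to 0.13 for Atp5o.

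Ndufb3, an accessory subunit of complex I, was sensitive to mouse 29. Its levels were 36.6, 36.8, 42.7 and 40.4 CPM in HFD mice 25, 28, 33 and 45 at 20 weeks, and 48.7, 51.9, 55.0 and 31.1 CPM in FEN-HFD mice 21, 22, 24 and 29. Mice 21, 22 and 24 were above all HFD livers, and mouse 29 was below them all. The log2 fold change was 0.26 (95% interval -0.09 to 0.61, adjusted p = 0.402 by edgeR), and 0.41 with an adjusted p of 0.0329 by edgeR without mouse 29. Ndufb3 was then the single member called. It has 1 near copy, a processed pseudogene, and the 7-day levels were 41.9 ± 6.96 CPM on HFD and 46.1 ± 3.86 CPM on FEN-HFD (SD, n = 4 each).

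Ndufa10, another accessory subunit of complex I, had 126, 137, 150 and 139 CPM in the HFD livers and 114, 131, 129 and 100 CPM in the FEN-HFD livers at 20 weeks (mice in the same order). The groups overlapped, and the log2 fold change was -0.22 (95% interval -0.46 to 0.020, adjusted p = 0.313 by edgeR). In complex II, Sdha was at 628, 621, 664 and 639 CPM on HFD and at 563, 650, 668 and 434 CPM on FEN-HFD. Mouse 29 was again lowest, the others spanned the HFD values, and the log2 fold change was -0.14 (95% interval -0.45 to 0.17). Sdhc had 157, 164, 172 and 163 CPM on HFD and 145, 166, 166 and 127 CPM on FEN-HFD, also with overlap.

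In complex III no member passed the test. Uqcr10, a small subunit, had 105, 110, 114 and 103 CPM on HFD and 100, 104, 103 and 89.2 CPM on FEN-HFD at 20 weeks, a log2 fold change of -0.12 (adjusted p = 0.471 by edgeR). Uqcrh, the hinge protein near cytochrome c1, had 137, 143, 164 and 160 CPM on HFD and 169, 168, 179 and 145 CPM on FEN-HFD. The FEN-HFD livers other than mouse 29 were above all HFD livers, the log2 fold change was 0.13 (adjusted p = 0.538 by edgeR), and it was -0.015 once the length and GC trend of other genes was removed.

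In complex V, Atp5g1, a c-ring gene, had 122, 115, 133 and 135 CPM on HFD and 106, 124, 109 and 103 CPM on FEN-HFD at 20 weeks. The groups overlapped by 1 FEN-HFD liver, and the log2 fold change was -0.19 (95% interval -0.40 to 0.021, adjusted p = 0.320 by edgeR). Atp5e, the epsilon subunit of the F1 part, had 117, 115, 140 and 123 CPM on HFD and 113, 124, 117 and 87.3 CPM on FEN-HFD, with a log2 fold change of -0.17 (adjusted p = 0.497 by edgeR). The most abundant member, Atp5b, was at 1337, 1428, 1550 and 1478 CPM on HFD and at 1293, 1518, 1456 and 1110 CPM on FEN-HFD. Its groups overlapped and its log2 fold change was -0.11 (95% interval -0.39 to 0.18, adjusted p = 0.693 by edgeR).

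Complex IV held the member with the smallest p at 20 weeks, the striated-muscle isoform Cox7a1 (chr7:30184144-30186078, plus strand, GRCm38). It had 1.70, 1.98, 1.18 and 10.6 CPM in HFD mice 25, 28, 33 and 45 and 0.674, 1.17, 0.704 and 1.14 CPM in FEN-HFD mice 21, 22, 24 and 29. The groups did not overlap, though mice 33 and 22 were almost level, and mouse 45 lay far above the rest. The log2 fold change was -2.07 (SE 0.74, unadjusted p = 0.0204, adjusted p = 0.182 by edgeR) and was -0.83 without mouse 45 (adjusted p = 0.232 by edgeR). DESeq2, with no library left out, gave -2.06 and an adjusted p of 0.0268. Cox7a2l, a factor that helps complex III and complex IV to associate, had 69.2, 74.3, 90.5 and 81.8 CPM on HFD and 88.9, 86.1, 93.8 and 92.9 CPM on FEN-HFD, where 2 of the FEN-HFD values were above all HFD values (log2 fold change 0.20, adjusted p = 0.317 by edgeR). Ndufa4l2, a low-level paralog of Ndufa4 known as a hypoxia-induced gene, had 0.642, 1.02, 0.720 and 0.849 CPM on HFD and 1.01, 1.49, 0.905 and 1.87 CPM on FEN-HFD, with overlap (log2 fold change 0.66, adjusted p = 0.282 by edgeR).

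**Figure D4:**
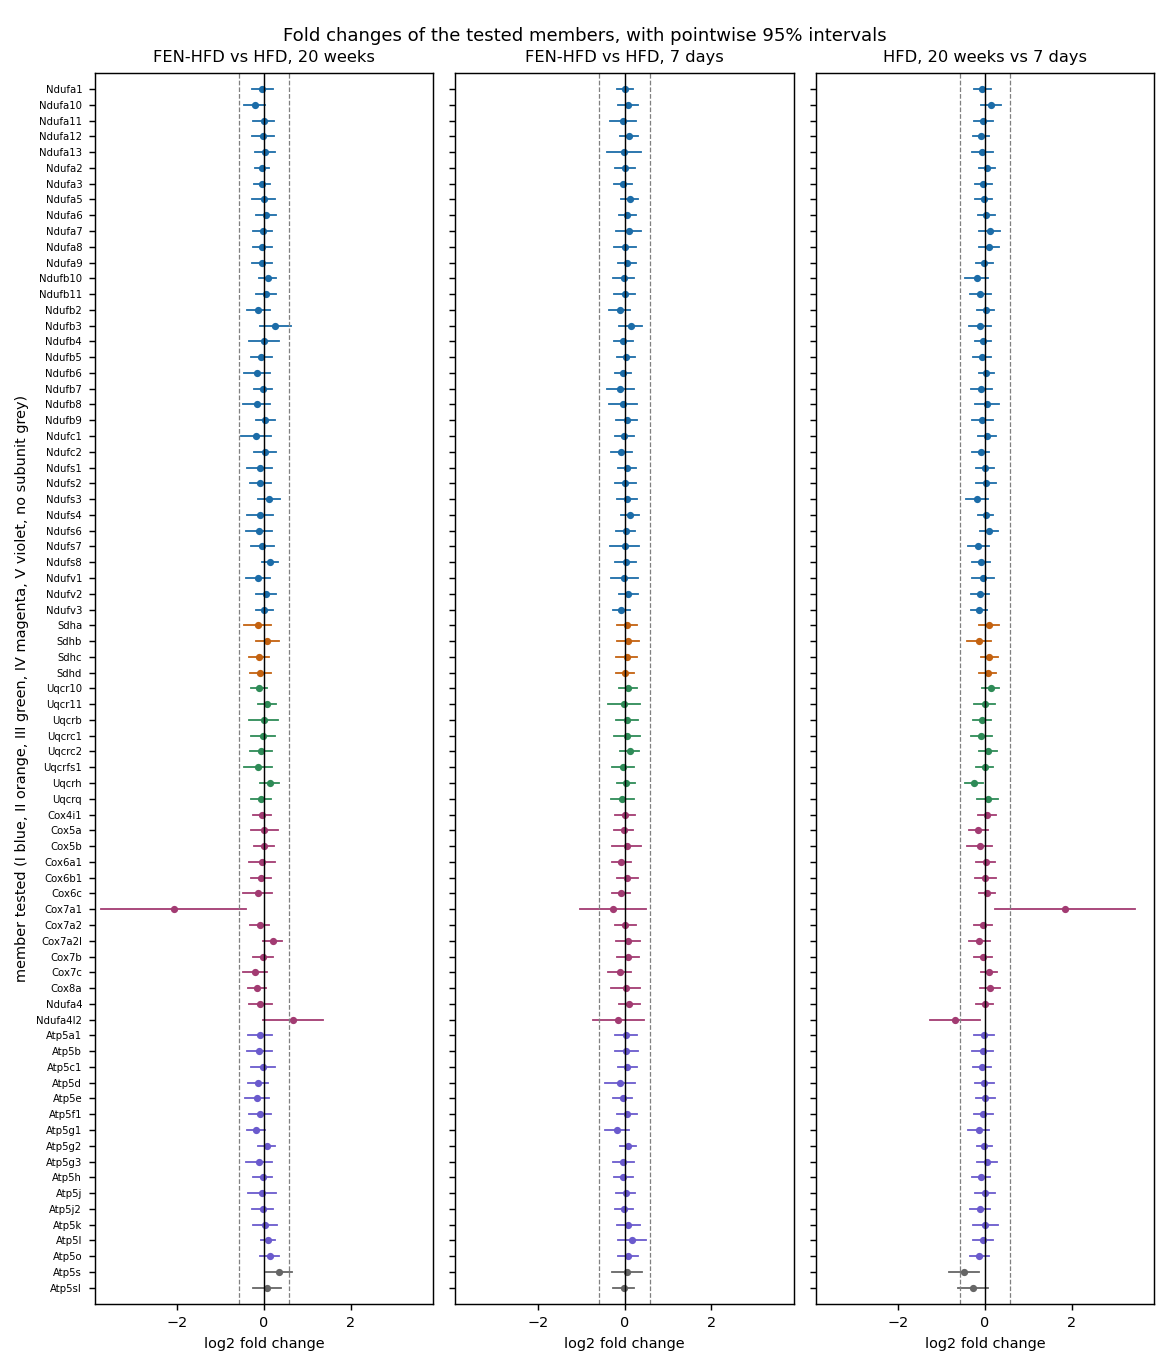
Log2 fold change with its pointwise 95% interval for the 77 tested members in 3 comparisons, coloured by complex, with dashed lines at 1.5-fold in either direction. Nearly all intervals cross 0 and stay inside the dashed lines (73 of 77 at 20 weeks, 75 of 77 at 7 days and 73 of 77 for HFD at 20 weeks against 7 days), and Cox7a1, Ndufa4l2 and Atp5s are the widest or farthest from 0.

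Cox7a1 was 1 of 3 muscle isoforms that stood out in HFD mouse 45, each the counterpart of a widely expressed gene of complex IV. Cox6a2 had 257 counts in mouse 45 (10.4 CPM) and 0 to 4 counts in the other 15 libraries. Cox8b had 309 counts (12.5 CPM) and 0 to 6 elsewhere, and Cox7a1 had 262 counts and 11 to 64 elsewhere. All 3 were thus highest in the same liver. The widely expressed partners did not stand out there, with 160 CPM for Cox6a1, 137 CPM for Cox7a2 and 201 CPM for Cox8a, inside the ranges of 126 to 190, 114 to 176 and 142 to 227 CPM over the 16 livers. Of the counts of each pair, the muscle isoform held 6.08% for Cox6a1 and Cox6a2, 7.18% for Cox7a2 and Cox7a1, and 5.85% for Cox8a and Cox8b in mouse 45, and at most 0.0827%, 1.33% and 0.159% in the other livers.

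Markers of striated muscle moved with these isoforms. The summed level of the 7 markers was 1172 CPM in mouse 45 and 0 to 3.16 CPM in the other 15 libraries. Ckm, the muscle creatine kinase, had 5481 counts, Acta1, skeletal muscle actin, 6791, and the fast myosin genes Myh1 and Myh4 had 7721 and 3626, while the highest counts elsewhere were 16, 23, 28 and 19. Myh6, an atrial myosin of the heart, had 1 count. Mouse 45 also had 79 counts of Adipoq, 61 of Plin1 and 42 of Lep, which mark adipocytes, against at most 3, 2 and 1 elsewhere, and 0 counts of Ucp1, the marker of brown fat. Cfd, the remaining adipocyte marker, had 229 counts in mouse 45 and 2 to 2160 elsewhere, so that the summed list, at 16.6 CPM, was below the 55.0 to 145 CPM of the FEN-HFD livers at 20 weeks. Their part in the levels of Cox6a2, Cox7a1 and Cox8b was not tested. FEN-HFD mouse 65 (7 days), with the highest muscle marker sum among the other livers, had 0.775 CPM of Cox7a1, 0.0620 CPM of Cox6a2 and 0.0310 CPM of Cox8b, within the range of its group.

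**Figure D5:**
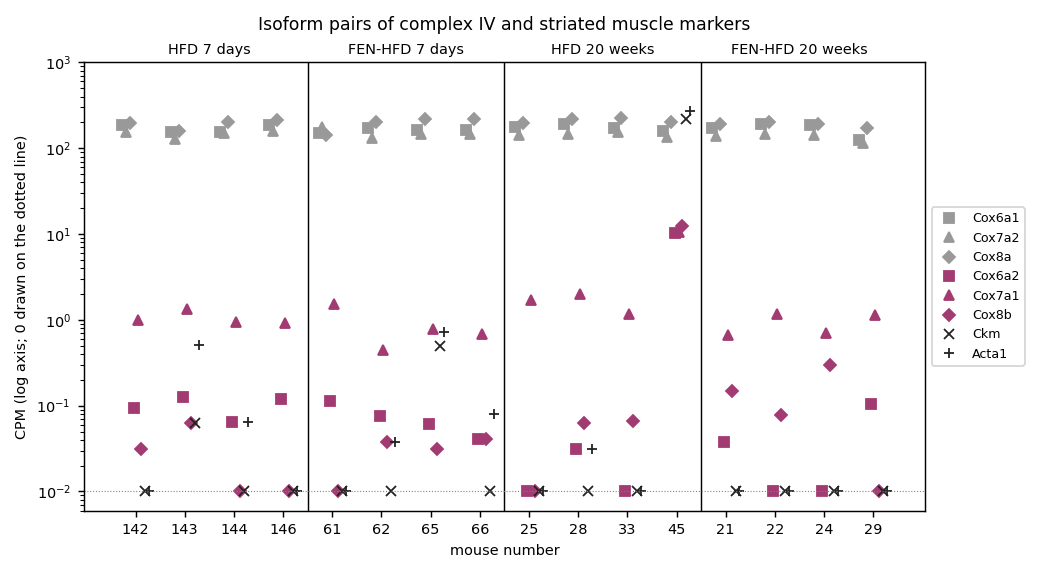
CPM of the widely expressed genes Cox6a1, Cox7a2 and Cox8a (grey), of their muscle isoforms Cox6a2, Cox7a1 and Cox8b (magenta) and of the muscle markers Ckm and Acta1 (black) in each of 16 mice, on a log axis with 0 drawn on the dotted line. In mouse 45 the 3 muscle isoforms lie between 10.4 and 12.5 CPM together with high Ckm and Acta1, while the widely expressed genes are level across mice.

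The other restricted isoforms of complex IV stayed low in every library. Cox4i2, a lung isoform, had 0 to 0.202 CPM in the 16 livers against 309 to 386 CPM of Cox4i1, and Cox6b2, a testis isoform, had 0 to 0.242 CPM against 139 to 191 CPM of Cox6b1. Both maxima were in mouse 45, at 5 counts of Cox4i2 and 6 of Cox6b2, where other libraries reached 4 and 6. Ndufa4l2 had 0.642 to 1.87 CPM against 194 to 316 CPM of Ndufa4. In every group the widely expressed gene held most of the counts of its pair.

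The regions upstream of the isoform pairs are printed because the members of a pair differ so widely in liver, for Cox7a1 and Cox7a2, Cox8b and Cox8a, and Cox6a1 without Cox6a2. Each is 150 bases before the start of the gene, taken from the RefSeq promoter table (GRCm38.p6) and kept clear of transcribed bases, 5′ to 3′ on the strand of the gene. Cox7a1 is at chr7:30183994-30184143 (plus), Cox7a2 at chr9:79759879-79760028 (minus), Cox8b at chr7:140900447-140900596 (minus), Cox8a at chr19:7217617-7217766 (minus) and Cox6a1 at chr5:115348982-115349131 (minus). Capitals mark a match to a motif searched on both strands: GCGCATGC for NRF1, CCGGAAG for ETS factors such as GABP, AAGATGGC for YY1, TATAAA for the TATA box and CAGCTG for the E-box bound by myogenic factors.
Cox7a1: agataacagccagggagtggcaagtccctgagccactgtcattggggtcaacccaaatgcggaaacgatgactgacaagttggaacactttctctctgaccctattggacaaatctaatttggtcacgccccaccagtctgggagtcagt
Cox7a2: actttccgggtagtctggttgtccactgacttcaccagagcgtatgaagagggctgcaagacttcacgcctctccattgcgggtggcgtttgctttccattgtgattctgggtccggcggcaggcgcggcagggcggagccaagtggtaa
Cox8b: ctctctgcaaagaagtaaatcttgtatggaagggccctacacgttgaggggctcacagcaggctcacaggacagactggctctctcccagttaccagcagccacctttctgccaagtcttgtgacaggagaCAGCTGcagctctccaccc
Cox8a: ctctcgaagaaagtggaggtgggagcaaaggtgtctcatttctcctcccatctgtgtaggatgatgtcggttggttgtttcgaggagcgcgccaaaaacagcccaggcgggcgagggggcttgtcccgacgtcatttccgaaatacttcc
Cox6a1: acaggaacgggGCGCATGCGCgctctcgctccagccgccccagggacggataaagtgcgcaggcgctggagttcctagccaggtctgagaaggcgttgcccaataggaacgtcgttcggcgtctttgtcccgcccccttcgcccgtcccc
In the stretches shown, Cox6a1 holds the NRF1 letters on both strands, overlapping, and Cox8b holds the E-box, while Cox7a1, Cox7a2 and Cox8a hold none of the motifs.

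Over whole windows of 300 bases (250 before and 50 after the start), 67 of the 84 genes had an entry in that table, Atp5sl under its symbol Dmac2. The NRF1 letters were in 10 of the 67 (14.9%), against 3.05% of the 27025 genes in the table. The ETS letters were in 16 (23.9%) against 9.93%, and the YY1 letters in 10 (14.9%) against 3.19%. The TATA letters were in 7 (10.4%) against 15.7%, and the E-box in 6 (8.96%) against 18.3%. Of the 10 members with the YY1 letters, 7 were among the 31 complex I genes and 2 among the 13 complex V genes, with 0 of 14 in complex IV. In complex III, 2 of 5 genes (Uqcr11 and Uqcrc1) held the NRF1 letters and 2 (Uqcr11 and Uqcrh) the ETS letters. These are matches of letters in a window, not measured binding.

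After 7 days, FEN-HFD and HFD were compared to ask for an early change on the diet. Of the 77 members tested, 0 were higher, against 0.0988% of 13157 genes, and 0 lower, against 0% of all genes, by edgeR. At an unadjusted p under 0.05 there were 0 members, against 5.08% of all genes, and DESeq2 and limma-voom also called 0 members. No member had groups without overlap, against 3.19% of all genes, and the 95% interval was within 1.5-fold for 75 of 77, against 68.8%. The exceptions were Cox7a1 and Ndufa4l2, both near 1 CPM. The median log2 fold change was 0.021, with 47 members above 0 and 30 below, beside -0.011 over all genes.

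The member with the smallest p at 7 days was Atp5g1, which had 148, 110, 147 and 147 CPM in HFD mice 142, 143, 144 and 146 and 103, 119, 127 and 137 CPM in FEN-HFD mice 61, 62, 65 and 66. HFD mouse 143 fell among the FEN-HFD values and the other HFD livers were above them all (log2 fold change -0.18, 95% interval -0.45 to 0.093, adjusted p = 0.9998 by edgeR). Atp5l, a membrane subunit of complex V, had 25.4, 18.2, 22.0 and 23.1 CPM on HFD and 31.3, 19.4, 24.9 and 24.4 CPM on FEN-HFD, with the highest value in mouse 61. In complex I the smallest p belonged to Ndufa5 and Ndufs4, accessory subunits with log2 fold changes of 0.12 each. Ndufa5 was at 44.2 ± 4.15 CPM on HFD and 47.8 ± 2.57 CPM on FEN-HFD, and Ndufs4 at 63.8 ± 4.90 and 68.9 ± 6.52 CPM (SD, n = 4 each).

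The remaining complexes were as close at 7 days. Sdhb had 251, 192, 239 and 273 CPM on HFD and 244, 234, 256 and 267 CPM on FEN-HFD, and the 4 complex II genes had log2 fold changes from 0.020 to 0.071. Uqcrc2, a core subunit of complex III, had 273, 224, 251 and 280 CPM on HFD and 307, 251, 275 and 277 CPM on FEN-HFD (log2 fold change 0.12). Ndufa4 had 270, 220, 252 and 263 CPM on HFD and 316, 243, 261 and 259 CPM on FEN-HFD (log2 fold change 0.11). For each of these genes the groups overlapped, and for Uqcrc2 and Ndufa4 the highest liver was mouse 61. Cox7c, a small subunit of complex IV with 46.0% GC, ran the other way there, with 80.7 CPM in mouse 61 against 102 to 125 CPM in the 7 other 7-day livers.

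The HFD groups of 20 weeks and 7 days were set side by side to see whether duration of the diet changed the chain. Although 4.78% of 13255 genes were higher and 2.73% lower at 20 weeks, 0 of 77 members were higher and 0 lower by edgeR. There were 4 members at an unadjusted p under 0.05, against 25.5% of all genes, and 1 with groups that did not overlap, against 17% of all genes. The 95% interval lay within 1.5-fold for 73 of 77 members, against 56.3%. DESeq2 called Cox7a1 higher and Atp5s lower, and limma-voom called 0. Over the members the median log2 fold change was -0.041 (28 above 0, 49 below), beside -0.013 over all genes.

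Atp5s, which has an Atp5 symbol and no place in the ATP synthase, had the smallest p, with 4.15, 4.68, 4.12 and 4.04 CPM in HFD mice 25, 28, 33 and 45 at 20 weeks and 5.80, 5.0, 7.61 and 5.38 CPM in HFD mice 142, 143, 144 and 146 at 7 days. The groups did not overlap, and the log2 fold change was -0.50 (95% interval -0.84 to -0.15, adjusted p = 0.0845 by edgeR). DESeq2 gave an adjusted p of 0.0483, and the edgeR fit of all 16 libraries together gave 0.0370. At 20 weeks FEN-HFD mice 21, 22, 24 and 29 had 5.69, 4.78, 5.93 and 5.30 CPM of Atp5s, all above the HFD livers of that time (log2 fold change 0.35, unadjusted p = 0.0252, adjusted p = 0.200 by edgeR). Both comparisons share the 20-week HFD livers. Atp5sl had 29.2 ± 6.55 CPM at 20 weeks and 35.0 ± 3.57 CPM at 7 days on HFD (SD, n = 4 each).

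Uqcrh had an unadjusted p of 0.0250 and a log2 fold change of -0.25 (adjusted p = 0.138 by edgeR), with 137, 143, 164 and 160 CPM against 186, 155, 181 and 188 CPM at 7 days, where mouse 143 lay among the 20-week values. Ndufa4l2 had 0.642, 1.02, 0.720 and 0.849 CPM at 20 weeks and 1.60, 1.24, 1.39 and 0.956 CPM at 7 days, with overlap by 1 liver (log2 fold change -0.69, adjusted p = 0.128 by edgeR). Cox7a1 was at 1.00, 1.34, 0.935 and 0.916 CPM at 7 days, and its log2 fold change of 1.84 (adjusted p = 0.151 by edgeR) was 0.62 without mouse 45 (adjusted p = 0.216 by edgeR). Complex I and complex V came closest with Ndufv3 at -0.15, Ndufs3 at -0.20 and Atp5o at -0.14 on the log2 scale (adjusted p = 0.294, 0.302 and 0.403 by edgeR).

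The effect of fenretinide at 20 weeks was also tested against its effect at 7 days in a fit of all 16 libraries. Of 77 members, 0 differed upwards, against 0.00747% of 13387 genes, and 0 downwards, against 0.0224%. No member had an unadjusted p under 0.05, against 8.68% of all genes, and DESeq2 and limma-voom called 0. The 95% interval of the difference lay within 1.5-fold for 72 of 77 members, against 43.8%. The median difference was -0.060 on the log2 scale, with 22 above 0 and 55 below, and was 0.011 without FEN-HFD mouse 29 and 0.0085 without HFD mouse 143. The smallest p values were those of Cox7a1 (-1.80, unadjusted p = 0.0529), Ndufa4l2 (0.80, unadjusted p = 0.0642) and Ndufa10 (-0.29, unadjusted p = 0.0673), with adjusted p of 0.583, 0.611 and 0.615 by edgeR. Without HFD mouse 45 the difference for Cox7a1 was -0.57 (adjusted p = 0.792 by edgeR).

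The spread between livers was close to that of other abundant genes. Over the 74 members with a mean of at least 10 CPM, the coefficient of variation within groups had a median of 10.1% (6.36% to 15.3%), and over 7734 genes at that level it was 10.6%. Standard errors of the log2 fold change at 20 weeks had a median of 0.11 over the members.

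Other genes of the pathway were taken from lists drawn up with earlier results of these data known. For FEN-HFD against HFD at 20 weeks, 0.769% of all genes tested were higher and 1.09% lower. At 20 weeks, FEN-HFD against HFD, 0 of 14 assembly factors of complex I, 0 of 4 of complex II, 0 of 6 of complex III and 0 of 3 of complex V passed the test in either direction, and of 19 assembly factors of complex IV 1 was lower and 0 higher. That gene was Cox19, which serves copper delivery to complex IV, with 20.6 ± 3.01 CPM on FEN-HFD and 33.5 ± 4.82 CPM on HFD (SD, n = 4 each), or -0.70 on the log2 scale with an edgeR adjusted p of 0.0317. None of 9 further subunits and carriers, such as Cyc1 and Cycs, of 13 citric acid cycle genes, of 18 regulators of mitochondrial biogenesis, of 13 genes of ubiquinone synthesis, of 7 mitochondrial carriers or of 76 mitochondrial ribosomal proteins passed. Ppargc1a, the coactivator that drives mitochondrial biogenesis, had 5.35 ± 0.287 CPM on FEN-HFD and 7.36 ± 1.52 CPM on HFD (SD, n = 4 each), or -0.46 on the log2 scale with an edgeR adjusted p of 0.165. Its list went the other way, with a median log2 fold change of 0.11 over the 18 regulators. At an unadjusted p under 0.05 by edgeR, 1 regulator was higher and 1 lower. Tfb1m and Pprc1 had higher means on FEN-HFD (9.93 and 6.44 CPM) than on HFD (8.19 and 4.77 CPM). Of 76 cytosolic ribosomal proteins, 1 was higher and 0 lower, with a median log2 fold change of 0.27 beside 0.0093 over all genes. At an unadjusted p under 0.05 by edgeR, 51 were higher and 0 lower, against 18.5% of all genes in either direction. For HFD at 20 weeks against 7 days, 1 was higher and 22 lower at that threshold, against 25.5% of all genes, with a median log2 fold change of -0.13. Both of these comparisons share the 20-week HFD livers. For FEN-HFD against HFD at 7 days, 2 were higher and 0 lower, against 5.08% of all genes.

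At 7 days none of these pathway lists had a gene that passed, where 0.0988% of all genes were higher and 0% lower. Between HFD at 20 weeks and 7 days, 2 of 13 citric acid cycle genes were higher and 0 lower. Over all genes 4.78% were higher and 2.73% lower. Citrate synthase (Cs) had 150 ± 16.7 CPM at 20 weeks and 100 ± 12.4 CPM at 7 days (SD, n = 4 each), or 0.58 on the log2 scale with an edgeR adjusted p of 0.0161, and Suclg2, a subunit of succinyl-CoA synthetase, had 301 ± 24.6 and 209 ± 12.3 CPM (SD, n = 4 each), or 0.51 on the log2 scale with an edgeR adjusted p of 0.0115. Beside them, Sdha to Sdhd, which act in the same cycle, had log2 fold changes from -0.14 to 0.099 with a smallest adjusted p of 0.502 by edgeR. Of 19 complex IV assembly factors, Cox19 was higher at 20 weeks (log2 fold change 0.80, adjusted p = 0.00576 by edgeR) and Cox11, another copper factor, lower (-0.35, adjusted p = 0.0436 by edgeR). Both Cox19 comparisons share the 20-week HFD livers. Cox19 had 19.1 ± 1.77 CPM on HFD and 18.4 ± 0.765 CPM on FEN-HFD at 7 days (SD, n = 4 each). On FEN-HFD at 20 weeks Cs had 108 ± 12.3 CPM and Suclg2 241 ± 22.4 CPM (SD, n = 4 each). Of the mitochondrial ribosomal proteins 1 of 76 was higher and 1 lower, and of the cytosolic ones 0 of 76 were higher and 2 lower. The other pathway lists had 0 in either direction. Among cell type markers, 2 of 6 hepatocyte and 2 of 6 macrophage markers were lower. Of 6 stellate markers 1 was higher, as was the 1 adipocyte marker tested. The part of these markers in the members' values was not tested.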

How the data were processed

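Male mice were fed an HFD or FEN-HFD, and total liver RNA was depleted of ribosomal RNA and sequenced as paired 75-base reads. The deposited table holds whole-number counts per gene, which the authors made after aligning the reads to mm10 with STAR 2.0. The submitters' processing notes also name DESeq2 1.6. The kit is described differently in the paper and in the labels, and the counting program, annotation and strand setting are not given in the sources used here.

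From these counts, edgeR 4.0.16 (R 4.3.3) with TMM scaling, its default filter on low counts and the robust quasi-likelihood test was fitted over all genes, with Benjamini-Hochberg adjustment and a threshold of 0.05. Comparisons within a time or diet used their 8 libraries, and the difference of effects used all 16. DESeq2 1.42.0, limma-voom (limma 3.58.1) with quality weights, RLE scaling, a filter of 1 count, 1 fit of all libraries, removal of Rn45s and Lars2, removal of a length and GC trend fitted on other genes, and leaving out each mouse were alternatives. Leaving out HFD mouse 45 and FEN-HFD mouse 29 together was added after seeing the data. CPM levels used TMM factors over 16 libraries, and transcript lengths and coordinates came from GENCODE vM21 (GRCm38). The scripts were tested on simulated data.

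Members and lists were chosen with earlier results of these data known. Every member could be named. Genes were selected for per-mouse values by a rule. It took members called by edgeR, members of each complex with the smallest p in a comparison (up to 2), and the highest member of each complex per kb. It also took isoform pairs and, from the other lists, up to 3 genes per comparison with the smallest p. Some selected genes are given here only as means, ranges or fold changes, or are not named. Atp5s, Atp5sl and Atp5a1 were named after their values were seen. All 77 tested members passed a filter that uses group sizes and not group labels. A change of direction under an alternative was counted where the sign changed and the value moved by more than its standard error.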

Additional observations from a re-analysis of the deposited data

Results flagged for a closer look

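In 9 of 176 sets of 4 mice (the members named for per-mouse values and the summed levels of the complexes, in each group), 1 mouse stood apart from the other 3, its gap to the nearest of them, relative to the whole range, exceeding Dixon's 95% critical value, and chance gives about 1 in 20, or 8.8 here. In the HFD livers at 20 weeks, mouse 45 had 10.4 CPM of Cox6a2 (others 0 to 0.0310), 10.6 CPM of Cox7a1 (others 1.18 to 1.98) and 12.5 CPM of Cox8b (others 0 to 0.0655), beside a muscle marker sum of 1172 CPM, whose part in these values was not tested. In the HFD livers at 7 days, mouse 143 had 1257 CPM of Atp5b (others 1544 to 1586), 110.2 CPM of Atp5g1 (others 147 to 148) and 136 CPM of Atp5o (others 168 to 175), and it was below the 16-mouse mean for 73 of 74 members. HFD mouse 28 had 4.68 CPM of Atp5s at 20 weeks (others 4.04 to 4.15). FEN-HFD mouse 62 had 275 CPM of Atp5f1 at 7 days (others 303 to 306). FEN-HFD mouse 22 had 0.157 CPM of Cox6b2 at 20 weeks, and the other mice of its group had 0.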

How the results depend on the processing

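At 20 weeks, 0 members were called lower and 0 higher by edgeR. DESeq2 called 1 lower (Cox7a1, -2.06, adjusted p = 0.0268), the number higher ran from 0 to 1 when each mouse was left out (1 without FEN-HFD mouse 29, Ndufb3, 0.41, adjusted p = 0.0329 by edgeR), and it was 1 with HFD mouse 45 and FEN-HFD mouse 29 both left out (Ndufb3, 0.42, adjusted p = 0.0410 by edgeR), a setting chosen after seeing the data. For HFD at 20 weeks against 7 days, DESeq2 called 1 higher (Cox7a1, 1.86, adjusted p = 0.0218) and 1 lower (Atp5s, -0.49, adjusted p = 0.0483), and the edgeR fit of 16 libraries called 1 lower (Atp5s, -0.48, adjusted p = 0.0370). The causes were not tested.

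Directions that changed belonged to values that passed no test. With the length and GC trend removed, log2 fold changes at 20 weeks were -0.015 for Uqcrh, -0.047 for Atp5l, -0.082 for Ndufa6, -0.031 for Uqcr11 and -0.037 for Atp5g2, and 0.091 for Ndufa4 between HFD at 20 weeks and 7 days. Without mice 45 and 29, Ndufa5 was at 0.13. With limma-voom the difference of effects for Cox7a2 was 0.061. Over all alternatives the members' median log2 fold change ran from -0.096 to 0.031 at 20 weeks and from -0.046 to 0.060 at 7 days, so its sign was not stable. With 4 mice per group the median standard error was 0.11 (log2 scale) at 20 weeks, and members near 1 CPM had wider intervals.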
